A study of Mus musculus with 4 samples.

Results

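The replication-dependent histone genes of mouse chromosome 13, known as the Hist1 genes, lie in a pair of dense groups. The peaks described here are those with a summit in the windows of these groups in build mm9, chr13:21700000-22150000 (the first window) and chr13:23500000-23950000 (the second window). The region was chosen by measured values: chr13:23600001-23700000, a part of the second window, was the densest stretch shared by the peak lists of the 3 FLAG libraries. The number and the sharing of FLAG peaks are therefore a description, whereas the mark H3K4me2 took no part in the choice. Of 125330 peaks on chromosomes 1 to 19 and X, 187 were members. They comprised 53 of 28338 EGFP_OK peaks, 31 of 16604 Pax6 peaks, 48 of 30931 Etv6 peaks and 55 of 49457 H3K4me2 peaks.

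The study examined transcription factors and histone marks by chromatin immunoprecipitation and sequencing (ChIP-seq) in neural progenitor-like cells derived from mouse embryonic stem cells, strain 129/SvJ, passages 15 to 18. The labels give growth factor at 10 ng per ml for all 4 libraries. Each of the 4 groups held 1 library, and no control or input library was analysed here. A FLAG antibody gave the libraries titled for Pax6, a paired-box and homeobox factor known for eye and forebrain development, and for Etv6, an ETS-family factor. It also gave a library titled for N31, EGFP and OK, called EGFP_OK, whose tagged protein the labels leave unnamed. The H3K4me2 library, titled for N31, Oct4, EGFP and 0 hr, was precipitated through dimethylated lysine 4 of histone H3, a mark of promoters and enhancers. The Pax6 and Etv6 titles name NS where the others name N31, so a difference between these cells and a difference between tagged proteins cannot be told apart. What drives the transgenes, and whether a line was 1 clone, is likewise not stated in the labels. With 1 library a group no test between conditions was possible, and the exact 95% intervals given after shares and densities cover counting error only. Brackets after medians of tags, distances and ratios give the lowest and the highest value. Peaks that lie side by side are also not independent.

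Replication-dependent histone genes encode the linker histone H1 and the core histones H2A, H2B, H3 and H4, which are made in bulk while DNA is copied. The genes are short and lack introns, and their mRNAs end in a stem-loop in place of a poly(A) tail. Many H2A and H2B genes stand head to head and share the DNA between them, and the coding sequences within a class are nearly identical.

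In the RefSeq gene table of assembly GRCm38.p6, which is not the build of the peaks, 55 Hist1 genes of chromosome 13 were found in gene order. The first group held 24 of them, from H2bc13 to H2bc11, with 1 H1, 8 H2A, 8 H2B, 2 H3 and 5 H4 genes. Among them lay 31 tRNA genes and the genes Zfp184, Pom121l2 and Prss16. The second group held 31, from H4c8 to H2ac1, with 5 H1, 6 H2A, 7 H2B, 7 H3 and 6 H4 genes. Among these lay 0 tRNA genes, the iron regulator gene Hfe, Trim38 and the solute carrier genes Slc17a1, Slc17a2, Slc17a3 and Slc17a4. The 147 genes listed between the groups included 75 vomeronasal receptor genes (Vmn1r) and 46 tRNA genes. Peaks were not assigned to single genes, because the gene positions and the peaks are in different builds.

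RefSeq gave a promoter for 51 of the 55 genes, 52 in all, each reaching from 250 bases before the start to 50 bases after it. To show what kind of DNA the windows hold, 1 promoter per class is printed with its 250 bases before the start, 5′ to 3′ on the gene's strand. In each class it was the promoter with the most kinds of the CCAAT box, the TATA box TATAAA, the octamer ATTTGCAT, the E2F-type TTTCGCGC and the ETS-type CCGGAA, and capitals mark those motifs on either strand.
H1f5: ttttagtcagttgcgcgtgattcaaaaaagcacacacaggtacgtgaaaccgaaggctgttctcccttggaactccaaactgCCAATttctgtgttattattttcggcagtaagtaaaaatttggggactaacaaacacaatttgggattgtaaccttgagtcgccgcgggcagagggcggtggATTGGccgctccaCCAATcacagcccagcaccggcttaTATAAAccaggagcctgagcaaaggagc
H2ac22: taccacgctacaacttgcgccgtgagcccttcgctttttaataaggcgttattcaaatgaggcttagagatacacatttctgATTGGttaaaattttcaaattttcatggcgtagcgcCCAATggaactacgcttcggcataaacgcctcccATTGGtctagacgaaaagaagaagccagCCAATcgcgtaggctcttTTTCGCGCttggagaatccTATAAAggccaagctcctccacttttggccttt
H2bc12: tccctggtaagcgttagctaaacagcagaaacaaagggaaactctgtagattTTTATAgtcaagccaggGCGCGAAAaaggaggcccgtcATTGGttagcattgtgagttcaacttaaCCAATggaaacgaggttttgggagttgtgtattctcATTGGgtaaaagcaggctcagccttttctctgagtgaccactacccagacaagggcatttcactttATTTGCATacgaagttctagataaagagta
H3c10: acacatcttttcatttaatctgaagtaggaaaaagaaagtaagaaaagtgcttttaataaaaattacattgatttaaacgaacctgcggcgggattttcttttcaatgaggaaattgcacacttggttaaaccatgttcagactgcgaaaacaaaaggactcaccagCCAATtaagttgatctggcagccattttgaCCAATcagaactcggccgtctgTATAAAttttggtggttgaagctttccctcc
H4c4: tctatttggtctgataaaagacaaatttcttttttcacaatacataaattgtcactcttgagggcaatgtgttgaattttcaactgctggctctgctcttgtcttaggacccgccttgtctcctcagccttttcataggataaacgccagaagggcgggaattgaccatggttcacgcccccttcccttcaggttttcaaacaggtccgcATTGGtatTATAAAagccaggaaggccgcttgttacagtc

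A CCAAT box, the letters bound by NF-Y, was in 84.6% of the 52 Hist1 promoters and in 37.4% of all 32851 RefSeq mouse promoters of the same length. It was in every H1, H2A, H2B and H3 promoter and in 3 of 11 H4 promoters. TATAAA was in 59.6%, against 13.6% of all promoters. The octamer ATTTGCAT, known as the Oct-1 site of H2B genes, was in 21.2% against 1.74%, in 5 H2A and 6 H2B promoters and in no promoter of the other classes. The E2F-type letters TTTCGCGC were in 17.3% against 0.323%, again only in H2A (5) and H2B (4) promoters, and TTTGGCGC was in 0% against 0.514%. H2A and H2B promoters that face each other share letters, so these counts are not independent. The ETS-type letters CCGGAA were in 2 of 52 promoters (3.85%, against 14.9% of all promoters), 1 of an H1 and 1 of an H4 gene. Their core GGAA, which every CCGGAA contains, was in 94.2% against 96.0%, and CACCC in 28.8% against 57.5%. All motifs were searched on both strands, and a match or its lack in these windows says nothing of whether a factor bound there.

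All 4 lists were dense in the windows and sparse in the interval between them. EGFP_OK had 58.9 peaks per Mb (44.1 to 77.0), 3.89 times its mean over the effective genome size. The same ratio was 3.88 for Pax6 (2.64 to 5.51), 3.22 for Etv6 (2.38 to 4.28) and 2.31 for H3K4me2 (1.74 to 3.01). Leaving out the 100-kb stretch that led to the choice gave 3.55, 3.10, 2.95 and 2.27. EGFP_OK member peaks covered 14.3% of the windows, Pax6 peaks 5.76%, Etv6 peaks 10.1% and H3K4me2 peaks 21.5%. The whole lists covered 1.87%, 0.928%, 2.06% and 5.08% of the effective genome size. Windows were measured in all their bases, and the effective size in mappable ones only.

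The interval between the windows, with its vomeronasal receptor genes, held 6 EGFP_OK, 3 Pax6, 6 Etv6 and 10 H3K4me2 peaks over 1.35 Mb. That was 0.293, 0.250, 0.269 and 0.280 times the mean density of the lists. The outer parts of the windows were nearly empty too. The first FLAG site of the first window began at 21801493, and the last of the second ended at 23854773. Counts were alike in both windows, with 27 and 26 EGFP_OK, 13 and 18 Pax6, 25 and 23 Etv6 and 31 and 24 H3K4me2 peaks.

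The edges of the windows were set by position. Nearest inside the start of the second window was a site of all 4 lists at chr13:23502914-23505965 in H3K4me2, with 158 EGFP_OK, 34 Pax6, 153 Etv6 and 708 H3K4me2 tags. Nearest outside was another site of all 4 lists, at chr13:23492308-23495297 in H3K4me2, with 249, 41, 226 and 805 tags. The run of shared sites thus went on past that edge for at least 1 site. After the end of either window, none of the lists had a peak within 50 kb.

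**Figure D1:**
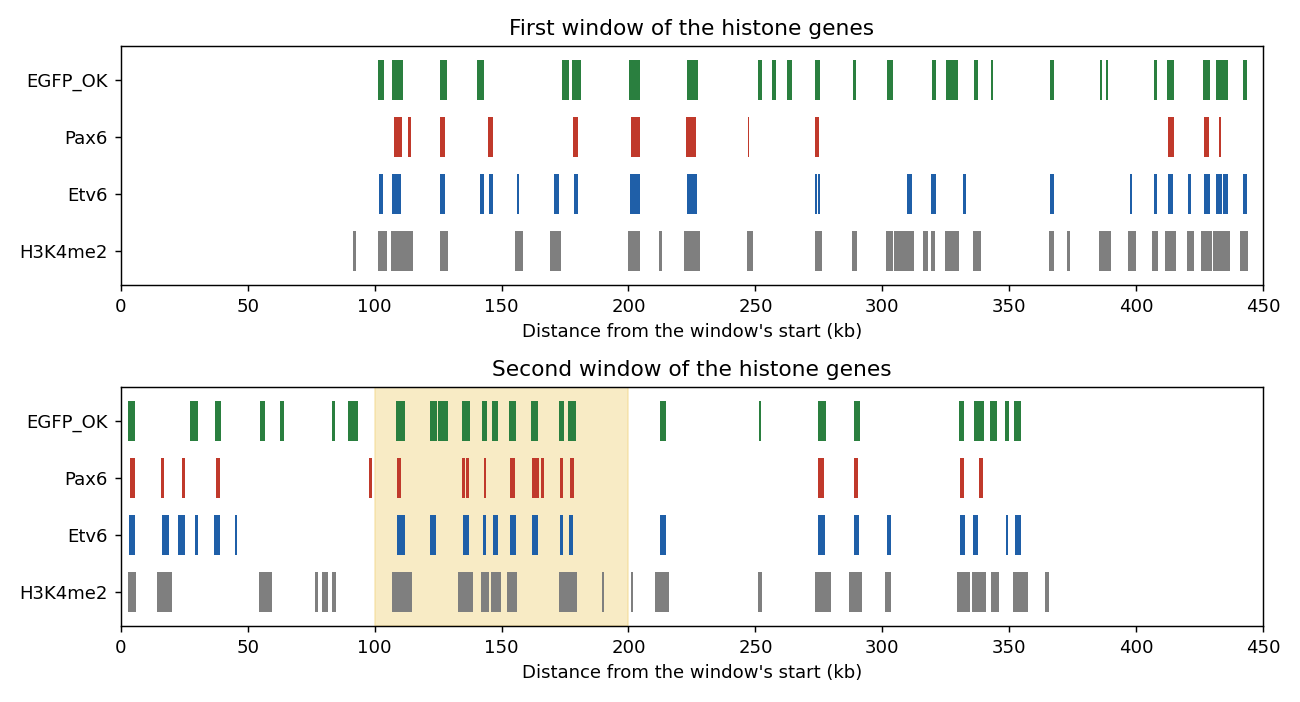
Member peaks of the 4 lists along the first (top) and second (bottom) window, by distance from the start of the window in kb. Each bar spans 1 peak, and the shaded stretch of 100 kb led to the choice of the region. Bars of the 4 lists stack at the same places, and the outer end of either window holds none.

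Beside their whole lists, member peaks were wide and covered many tags, yet their summits stood little above their surroundings. EGFP_OK members had a median width of 2310 bp (whole list 1143 bp), Pax6 members 1616 bp (971 bp), Etv6 members 1890 bp (1113 bp) and H3K4me2 members 3112 bp (1628 bp). Peaks of at least 2 kb made up 34 of 53 EGFP_OK members (64.2%, 49.8 to 76.9), against 5.56% of the list. They were 7 of 31 in Pax6 (22.6%, against 2.45%), 20 of 48 in Etv6 (41.7%, against 7.09%) and 41 of 55 in H3K4me2 (74.5%, against 36.1%). The shift to wide peaks was seen in every list, including H3K4me2.

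The median EGFP_OK member held 158 tags, the median Pax6 member 32, the median Etv6 member 102 and the median H3K4me2 member 373, against 47, 19, 54 and 120 in the whole lists. The fold enrichment, which the authors deposited as a ratio of summit height over local background, went the other way. EGFP_OK members had a median fold of 4.59 (whole list 7.04), Pax6 members 6.22 (10.6), Etv6 members 5.48 (6.26) and H3K4me2 members 4.56 (5.82). These medians stood at percentiles 5.83, 3.02, 30.9 and 22.6 of their own lists. Only 7 of 53 EGFP_OK members, 2 of 31 Pax6, 14 of 48 Etv6 and 14 of 55 H3K4me2 members lay above their list's median fold. By score, 10 times the −log10 p of the peak caller, the medians were ordinary, at percentiles 51.9, 44.2, 58.6 and 57.6. Over the whole lists, peaks of at least 2 kb had median tags of 143, 61, 158 and 277 in the same order. Their median folds were 6.46, 7.8, 5.88 and 5.16. Pax6 and Etv6 members had lower median tags than these wide peaks, and members of all 4 lists had lower median folds. How far width accounts for the folds was not tested. The local background reached up to 10 kb around a peak. The median gap between FLAG sites here was 5459 bp in the first and 5613 bp in the second window. The part of the local background in the low folds was not tested either.

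**Figure D2:**
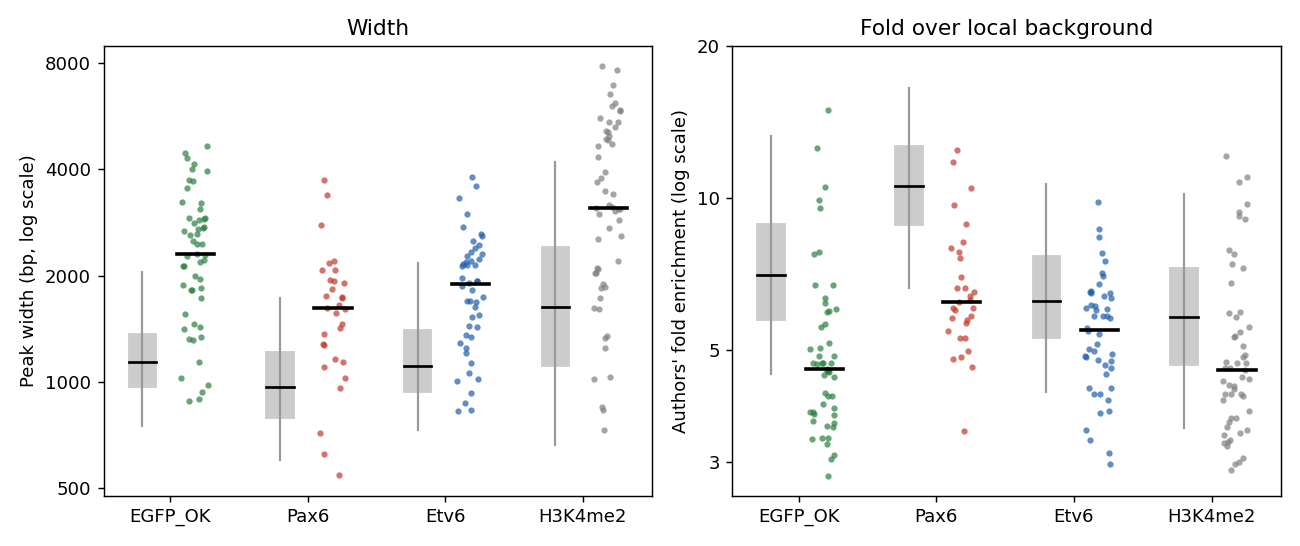
Width (left, bp, log scale) and the authors' fold enrichment (right, log scale) of the peaks of the 4 lists. Coloured points are member peaks with their median as a line, and grey boxes are the whole lists (median, quartiles, and whiskers over the middle 90% of the peaks). Medians of the members lie above the list for width and below it for fold in all 4 lists.

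Merging FLAG peaks that overlap by at least 1 bp gave 68 sites, 36 in the first and 32 in the second window. Sites are numbered 1 to 68 along the chromosome. All 3 FLAG lists held 22 of them (32.4%, 21.5 to 44.8), against 4.90% of the 57232 FLAG sites of the genome. Outside the 100-kb stretch of the choice it was 15 of 57 (26.3%). EGFP_OK and Etv6 without Pax6 shared 13, Pax6 and Etv6 without EGFP_OK shared 3, and EGFP_OK and Pax6 without Etv6 shared 0. EGFP_OK alone held 18, Etv6 alone 8 and Pax6 alone 4.

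Classes were also set beside the rest of the genome, where the commonest shared class was Pax6 with Etv6 at 16.1% of sites. Here that class made up 4.41% (0.919 to 12.4). Etv6 alone held 27.5% of sites genome-wide and 11.8% here (5.22 to 21.9). EGFP_OK alone held 38.1% genome-wide and 26.5% here (16.5 to 38.6), a difference within the counting error. Seen from each list, 22 of 53 EGFP_OK members overlapped both other FLAG lists (41.5%, against 9.65% of the list). The same held for 23 of 31 Pax6 members (74.2%, against 16.6%) and 23 of 48 Etv6 members (47.9%, against 9.01%). Peaks of at least 2 kb overlapped both others in 24.5%, 43.0% and 23.3% of cases over the whole lists.

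Width and sharing went together. Of the EGFP_OK members of at least 2 kb, 20 of 34 overlapped both other FLAG lists (58.8%). Of those under 2 kb it was 2 of 19 (10.5%), close to the 8.78% of all EGFP_OK peaks under 2 kb. Narrow Pax6 members still did so in 16 of 24 cases (66.7%, against 15.9% of all narrow Pax6 peaks) and narrow Etv6 members in 9 of 28 (32.1%, against 7.92%). Among EGFP_OK members, sharing above that of the list was thus seen in the wide peaks.

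The summits at these shared sites did not coincide closely. Over the 22 sites of all 3 lists the summits of the 3 best peaks spanned a median of 814 bp (137 to 2327), and in 0 of 22 did they lie within 100 bp of each other. Over all 2803 such sites of the genome the median was 196 bp, and 26.7% lay within 100 bp. Pairs of Pax6 and Etv6 member summits were a median of 170 bp apart (26 pairs, 26.9% within 100 bp), against 76 bp and 60.5% over all pairs. The medians were 202 bp against 128 bp for EGFP_OK with Etv6 and 234 bp against 130 bp for EGFP_OK with Pax6. Wide peaks have summits farther apart in any case. Over all pairs whose first peak had at least 2 kb, the medians were 104 bp for Pax6 with Etv6, 358 bp for EGFP_OK with Etv6 and 302 bp for EGFP_OK with Pax6. Beside wide peaks, EGFP_OK member summits were thus no farther from those of the other lists, and Pax6 summits were farther from Etv6. When only summits within 100 bp were linked, the windows held 113 sites and 1 of them was in all 3 lists (0.885%, against 1.61% genome-wide). The high share of sites in all 3 lists therefore holds for overlapping peaks and not for matching summits.

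Over the 22 sites of all 3 lists, EGFP_OK peaks held 96 to 348 tags (median 170), Pax6 peaks 17 to 122 (36.5) and Etv6 peaks 66 to 255 (124). Without duplicates the Pax6 library had 5288154 tags, where EGFP_OK had 21498324 and Etv6 24071748, and these are called kept tags. Scaled to 1000000 kept tags, the medians were 7.88 in EGFP_OK, 6.90 in Pax6 and 5.17 in Etv6. On that scale the ranges of the libraries overlapped widely.

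In the first window, the site with the most tags was site 12 at chr13:21922814-21927435. It held 348 EGFP_OK, 122 Pax6 and 255 Etv6 tags, the last in 2 peaks, inside a single H3K4me2 peak of 6041 bp and 743 tags. Site 11 at chr13:21900266-21904430 came next, with 348, 97 and 230 tags in the same order, its Pax6 tags in 2 peaks, and an H3K4me2 peak of 4836 bp and 653 tags. Site 2 at chr13:21806759-21811077 held 301, 88 and 207 tags, but its folds of 3.04, 4.63 and 2.97 were among the lowest of their lists. Of the 22 sites, these 3 held the most Pax6 and Etv6 tags. In EGFP_OK, site 10 came before site 2.

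Site 10 at chr13:21877742-21881458 held 307 EGFP_OK, 39 Pax6 and 66 Etv6 tags and no H3K4me2 peak, the nearest being 4171 bp away. Site 33 at chr13:22126316-22128951 held the Pax6 member with the highest score, 179.67, with 188 EGFP_OK, 60 Pax6 and 103 Etv6 tags. Its neighbour, site 34 at chr13:22131523-22133814, held 188, 17 and 158 tags. Pax6 was thus lower at site 34 than at site 33, while Etv6 was higher. The other sites in all 3 lists of the first window were site 4 (171, 25 and 91 tags), site 17 (96, 24 and 92 tags) and site 31 (138, 45 and 98 tags).

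In the second window, site 37 at chr13:23503060-23505567 held 158 EGFP_OK, 34 Pax6 and 153 Etv6 tags, under the H3K4me2 peak with the highest score of the windows. Site 61 at chr13:23774557-23777631 held 201, 54 and 172 tags, and its summits lay closest together, within 137 bp. Site 48 at chr13:23608481-23612018 held 168, 21 and 184 tags, and its summits lay farthest apart, over 2327 bp of an H3K4me2 peak of 7655 bp and 1104 tags. The width of the mark and the spread of the summits were thus both large at site 48.

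Site 65 at chr13:23835819-23840090 held 257, 40 and 78 tags, the most EGFP_OK and the fewest Etv6 tags among the 13 sites in all 3 lists of this window. Site 55 at chr13:23661627-23664905 held 215, 75 and 147 tags, the most Pax6 tags among them, with no H3K4me2 peak within 5544 bp. Site 41 at chr13:23536864-23539308 held 102, 31 and 119 tags and lay 15350 bp from the nearest H3K4me2 peak, the farthest of all FLAG sites in the windows. The other 7 sites of this window (51, 52, 54, 57, 58, 62 and 64) ranged over 117 to 215 EGFP_OK, 21 to 47 Pax6 and 92 to 144 Etv6 tags.

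**Figure D3:**
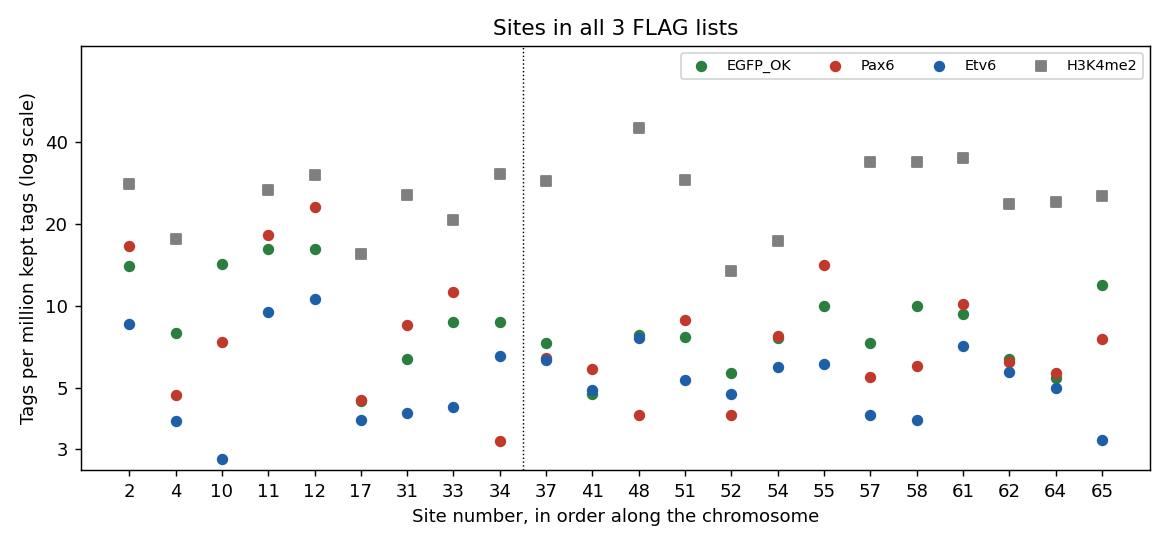
Tags per 1000000 kept tags (log scale) at the 22 sites in all 3 FLAG lists, in order along the chromosome, with the dotted line between the windows. Circles are FLAG libraries and squares the H3K4me2 peaks that overlap the site. No square is drawn at sites 10, 41 and 55, and Etv6 is the lowest circle at most sites.

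The balance between the libraries was read in tags per 1000000 kept tags, each summed over the peaks that library's own list has at a site. At the 35 sites shared by EGFP_OK and Etv6, EGFP_OK was a median of 1.47 times Etv6 (0.507 to 5.21), and above it at 32. Over all 5935 shared sites of the genome the median was 0.926, so the order of these libraries was the opposite. The peaks compared differed in extent, with a median width of 2612 bp in EGFP_OK and 1961 bp in Etv6, EGFP_OK being wider at 31 of the 35. Per kb of each peak the median ratio was 1.23 (0.590 to 1.96), above 1 at 28 sites, against 0.930 over all shared sites. At the 25 sites shared by Pax6 and Etv6 the median was 1.38 (0.381 to 2.69), close to 1.33 over all 12004 sites. At the 22 sites shared by Pax6 and EGFP_OK it was 1.02 (0.368 to 1.43), against 1.53 genome-wide. Per kb of each peak these medians were 1.69 and 1.41, with Pax6 peaks the narrower at all 22 of the latter.

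These ratios depend on the scale. Per 1000000 total tags, duplicates included, they became 1.15 for EGFP_OK over Etv6, 0.340 for Pax6 over Etv6 and 0.320 for Pax6 over EGFP_OK. Duplicates made up 81% of the Pax6 tags, 39% of the EGFP_OK tags and 22% of the Etv6 tags. With summits linked within 100 bp the Pax6 to Etv6 ratio was 0.847 over 7 sites. It was 2.01 in the first and 1.19 in the second window. Which of Pax6 and Etv6 was higher was therefore not settled. For EGFP_OK over Etv6 the median was 1.47 for summits within 100 bp and 1.55 and 1.43 in the windows. All of these use separately called peaks, and tags over the same bases were not compared.

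Of the 46 sites with Etv6, 21 had no Pax6 peak. Their Etv6 tags ran from 27 to 179 (median 82), which at the kept depth of the Pax6 library would be 5.93 to 39.3 tags (median 18.0). The member Pax6 peak with the fewest tags, only 545 bp wide, had 11, and the median member had 32. At 3 of the 21 sites the scaled value was below the former. The scaled median of the 21 sites was below the latter. So was that of the 25 Etv6 sites with a Pax6 peak, at 27.5 tags (14.5 to 56), and 0 of these were below 11. How far the lower depth accounts for the missing Pax6 peaks was not tested.

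H3K4me2 lay under most of the FLAG summits. The mark played no part in choosing the region, but the positions of the FLAG peaks did. Of the EGFP_OK member summits, 38 of 53 were inside an H3K4me2 peak (71.7%, 57.7 to 83.2), against 26.9% of the whole list and 45.9% of its peaks of at least 2 kb. For Pax6 it was 24 of 31 (77.4%, 58.9 to 90.4), against 43.7% and 64.1%, and for Etv6 37 of 48 (77.1%, 62.7 to 88.0), against 51.9% and 68.9%. Thus the 3 member shares were alike, where the whole lists differed. The lower bounds for Pax6 and Etv6 lay below the shares of the wide peaks of these lists, whereas that of EGFP_OK lay above it. Without the 100-kb stretch of the choice the shares were 72.1%, 77.3% and 76.9%. H3K4me2 peaks covered 21.5% of the windows, against 5.08% of the effective genome size. How far this coverage accounts for the shares of marked summits in the windows was not tested.

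Narrow EGFP_OK members were marked as often as wide ones, in 13 of 19 cases (68.4%, 43.4 to 87.4) against 25 of 34 (73.5%). Over the whole list the narrow peaks were marked in 25.8%. Narrow Pax6 members were marked in 18 of 24 cases (75%, 53.3 to 90.2), against 43.2% of all narrow Pax6 peaks. Narrow Etv6 members were marked in 21 of 28 (75%, 55.1 to 89.3), against 50.6%. Among narrow peaks, the interval of the members thus lay above the whole-list share in all 3 FLAG lists. EGFP_OK sites with no other FLAG peak were marked at 10 of 18 (55.6%, 30.8 to 78.5), against 14.0% of such sites genome-wide. At the other end, 19 of the 22 sites in all 3 lists had a marked summit (86.4%, 65.1 to 97.1), against 74.3% genome-wide, a difference within the counting error.

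**Figure D4:**
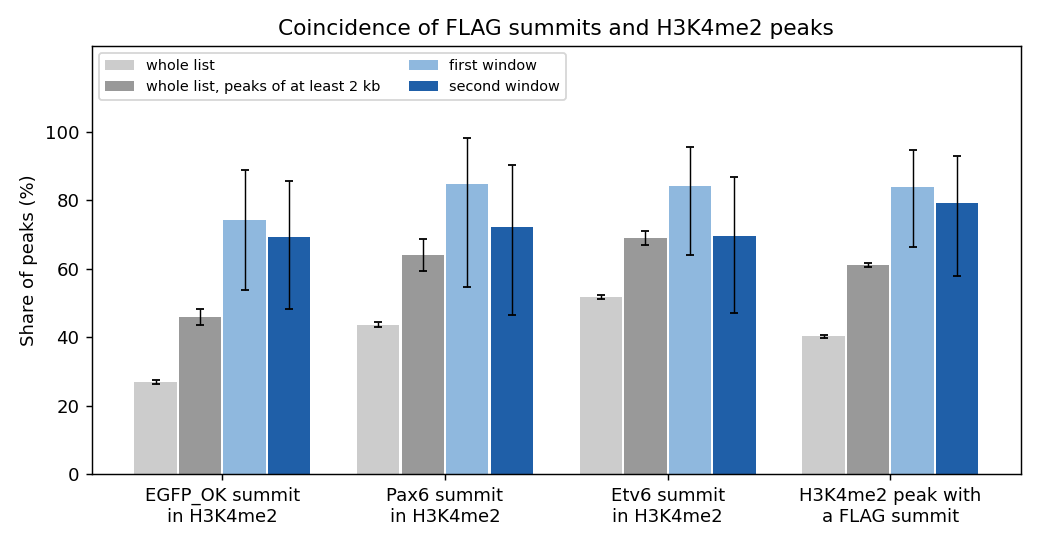
Share (%) of FLAG summits inside an H3K4me2 peak, and of H3K4me2 peaks that hold a FLAG summit, with exact 95% binomial intervals. Grey bars are the whole lists and their peaks of at least 2 kb, and blue bars are the members in either window. All blue bars lie above the grey bar of the whole list. The intervals of Pax6 and Etv6 reach down to the bar of the wide peaks. In the second window that of H3K4me2 does so too, and that of Etv6 reaches below the bar of the whole list.

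Seen from the mark, 45 of 55 member H3K4me2 peaks held a FLAG summit (81.8%, 69.1 to 90.9), against 40.3% of all H3K4me2 peaks. Among those of at least 2 kb it was 40 of 41 (97.6%), against 61.1% of all wide ones. Summits of all 3 FLAG lists were in 17 of 55 (30.9%, 19.1 to 44.8), against 4.01%. Outside the 100-kb stretch, 39 of 48 held any FLAG summit (81.2%) and 12 of 48 those of all 3 lists (25%). Since the density and sharing of FLAG peaks led to the choice, all of these shares are a description. Of 18 stretches of 50 kb in the windows, 10 held peaks of all 4 lists, against 10.7% of the genome's stretches.

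The wider the H3K4me2 peak, the more FLAG lists had a summit in it. The median width was 1291 bp for the 10 peaks with no FLAG summit, 3085 bp for the 18 with 1 list, 3346 bp for the 10 with 2 and 5094 bp for the 17 with 3. Over the whole list the order was the same but less steep, at 1384, 1910, 2324 and 2912 bp. A wider peak has more room for a summit, and its part in this order was not tested. The median fold was 6.29, 4.51, 3.88 and 4.37 in the same order, highest where no FLAG list had a summit. Over the whole list it was 5.92, 5.68, 5.38 and 5.27, also highest without a FLAG summit.

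The H3K4me2 peak with the highest score of the windows, 1247.67, lay at chr13:23502914-23505965 with 708 tags and 9.08-fold enrichment, and ranked 7 of 49457. It held a summit of each FLAG list, and the same place is site 37. Second was chr13:22140897-22143895 with a score of 814.65 and 435 tags, holding EGFP_OK and Etv6 summits. The next were chr13:21973331-21976207 (677.78, 380 tags) and chr13:21825609-21829016 (651.53, 432 tags), both with summits of all 3 lists. The fifth, chr13:22096885-22099968 (585.33, 354 tags), held 1 Etv6 summit.

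The widest mark of the windows, 7828 bp at chr13:22004777-22012604, held 1024 tags at 3.39-fold and a single Etv6 summit. Opposite in shape was the strongest mark without a FLAG summit, at chr13:23863977-23865594, with 1618 bp, 185 tags and 12.08-fold. Its fold was the highest of the 55. Of the 10 H3K4me2 peaks without a FLAG summit, 9 were narrower than 2 kb. Among member H3K4me2 peaks under 2 kb, 5 of 14 held a FLAG summit (35.7%, 12.8 to 64.9), against 28.6% of all such peaks. Most narrow marks thus lacked a FLAG summit over the whole list too.

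A summit in H3K4me2 was found at 47 of the 68 FLAG sites (69.1%, 56.7 to 79.8), against 35.5% of the 57232 sites of the genome. Sites without the mark were thus less common here than elsewhere. FLAG sites without H3K4me2 numbered 21 of 68, and none of these overlapped an H3K4me2 peak at all. The nearest mark was 295 to 15350 bp away (median 5544 bp). They included the EGFP_OK members with the highest fold. Of the 10 EGFP_OK members with the highest fold, 6 were outside H3K4me2, among them the first 4. It was 1 of 10 for Pax6 and 2 of 10 for Etv6. Over the whole lists, 20706 of 28338 EGFP_OK, 9352 of 16604 Pax6 and 14888 of 30931 Etv6 summits were outside. The EGFP_OK members outside H3K4me2 had a median fold of 4.42 and those inside 4.69. Over the whole EGFP_OK list these medians were 7.23 and 6.32, so high folds outside the mark were not particular to the windows.

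The highest-scoring site in EGFP_OK alone was site 16 at chr13:21962549-21964365, with 198 tags, 9.89-fold enrichment and a score of 483.22. It ranked 430 of 28338 and lay 8966 bp from the nearest H3K4me2 peak. A further pair was picked out after the values were seen. Site 15 at chr13:21956658-21958073 had 162 tags and 14.91-fold, at percentile 97.3 of its list. Site 44 at chr13:23562608-23564495 had 143 tags and 12.58-fold, at percentile 93.6. None of these 3 places had a Pax6 or an Etv6 peak, and they were narrower than the median EGFP_OK member.

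By the higher score of either list, the first site of EGFP_OK with Etv6 was site 5 at chr13:21840368-21842989, unmarked as well. Its EGFP_OK peak ranked 575 of 28338. Site 36 stood higher by rank within a list, with its Etv6 peak at 489 of 30931, and its summits were in H3K4me2. Site 5 held 332 EGFP_OK tags at 10.5-fold and 97 Etv6 tags at 7.11-fold, with summits 1134 bp apart. For Pax6 with Etv6 the highest was site 39 at chr13:23522446-23525439, also unmarked, with 251 Etv6 tags at 7.79-fold and 21 Pax6 tags at 6.04-fold. Its Pax6 peak was near the weakest of its list by score (rank 14837 of 16604), and its summits lay 1390 bp apart.

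The highest-scoring site in Etv6 alone, site 32 at chr13:22120560-22121569, had 51 tags and 7.51-fold inside an H3K4me2 peak of 2729 bp. That in Pax6 alone, site 13 at chr13:21946912-21947456, had 11 tags and 12.44-fold, also with its summit in H3K4me2. It combined the highest fold of the Pax6 members with their fewest tags.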

How the data were processed

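The 4 peak lists came from 1 library each. Build mm9 and the tools BWA 0.6.2, CASAVA 1.8.1 and MACS 1.4.2 are named, without roles, in the submitters' processing notes. Per the file headers, MACS called peaks on each library without a control, at p 1e-05 or below over 1.87e+09 mappable bases, with at most 1 tag kept per position. Each peak has a count of tags, deposited without normalization. Per the file headers, its score is 10 times a −log10 p-value. Per the file headers, its fold enrichment is a ratio over local background. Both are the authors' own values and served to describe or rank peaks within a list. The exception was the highest-scoring site of a class of 2 lists, which was taken by the higher score of either list. The sources used here do not say how reads matching several near-identical histone genes were placed, which could change tags, widths and overlaps in these windows.

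The headers list 27560633 to 35255051 tags per library, of which EGFP_OK kept 21498324, Pax6 5288154, Etv6 24071748 and H3K4me2 24550365. Peaks were compared with pandas 2.3.3, scipy 1.17.1 and numpy 2.4.6 under Python 3.11.15, with exact Clopper-Pearson or Poisson intervals. The overlap code was checked on simulated peaks. Sites were merged at an overlap of 1 bp. The rule named every site in all 3 FLAG lists, the highest-scoring site of each other class, the 5 highest-scoring H3K4me2 peaks, the widest, and the highest-scoring without a FLAG summit. The windows, members, motifs and lists were chosen with earlier results of these data known. Cell type markers could not be placed on peaks in mm9 and were not used here.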

Additional observations from a re-analysis of the deposited data

How the results depend on the processing

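No paired analysis was possible because each group held 1 library, and no replicate could be left out. Of 61 values under alternatives, 43 were counted as the same as the main value, 16 as moved and 2 as turned in direction. Shares and medians were counted as the same anywhere inside the main interval, and counts within a set fold, so sizeable changes can be among the 43. With a score of at least 100, member peaks fell to 25 in EGFP_OK, 6 in Pax6 and 28 in Etv6. FLAG sites fell to 36 and sites in all 3 lists to 5. With that score in both lists, the share of summits in H3K4me2 was 100% for Pax6 (6 peaks), 76% for EGFP_OK and 78.6% for Etv6. With that score in the FLAG lists, 52.7% of H3K4me2 peaks held a FLAG summit. The cause of the changes in these shares was not tested. With lists cut to equal numbers of top-scoring peaks, members were 34 in EGFP_OK and 23 in H3K4me2. Etv6 members then fell from 48 to 32 and FLAG sites from 68 to 50, both counted as the same. With summits linked within 100 bp in place of overlap, FLAG sites were 113 and sites in all 3 lists 1. The ratio of Pax6 to Etv6, 1.38 in the main setting, turned below 1 with such links (0.847) and per 1000000 total tags (0.340), and was 2.01 in the first window. On that scale of total tags, EGFP_OK over Etv6 was 1.15 and Pax6 over EGFP_OK 0.320, by construction, since the libraries kept unequal shares of their tags. Per kb of each peak, they were 1.23 and 1.41. The cause of the other shifts in ratio was not tested. The alternatives per kb and those restricted to either window were added after the data were seen. So were those without the 100-kb stretch of the choice for the folds and for the share of sites in all 3 lists. The lower depth of the Pax6 library limits how many of its peaks could be called.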
